A study of Mus musculus with 8 samples.

Results

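The genes described here are 34 genes of the endoplasmic reticulum (ER) that encode lumenal chaperones, enzymes of oxidative folding, components of the translocon, sensors of the unfolded protein response (UPR), and factors of ER-associated degradation (ERAD). They were chosen by symbol, and each symbol was matched to an Ensembl gene ID through GENCODE M21. All 34 were among the 20781 genes of the deposited table, and all 34 were among the 16565 genes tested. Their levels were compared between fibro-adipogenic progenitors (FAPs) that received melatonin for 24 h (4 libraries) and FAPs that received vehicle for 24 h (4 libraries), each after 48 h in culture. FAPs are stromal cells of muscle with the capacity to form adipocytes or fibroblasts. Both groups were made from male mice, wild type and uninjured, on the C57BL/6 background (C57BL/6J in the design text), and from 3 hindlimb muscles, the quadriceps, the gastrocnemius and the tibialis anterior. The extraction protocol names longissimus dorsi, a difference that was left unresolved. The melatonin dose is not given in the sources used here, and the cells were cultured, so the values describe FAPs in vitro.

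Secreted and membrane proteins enter the ER through the translocon and fold with the help of chaperones such as BiP (Hspa5) and of protein disulfide isomerases, which are kept oxidized by ERO1 enzymes. Proteins that fail to fold are passed through ERAD to the proteasome. When unfolded proteins accumulate, the sensors IRE1 (Ern1), ATF6 and PERK start the UPR, which raises the transcription of many of these genes, in part through the factors XBP1 and ATF6 and the promoter motif called the ER stress response element (ERSE). Cells that secrete much matrix, such as fibroblasts, depend on this machinery.

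Library totals ran from 35584931 to 49769873 counts with melatonin and from 45682034 to 52401153 counts with vehicle, so that 3 counts, the limit that a count of 0 allows, corresponded to 0.0560 to 0.0805 CPM and covers counting error only. CPM are counts divided by the library size, scaled with the trimmed mean of M values (TMM), so that libraries of unequal depth can be compared. Melatonin replicate 4 stood apart from the other melatonin libraries on the second principal component, which held 14.4% of the variance, at -54.4 against 18.5 to 25.5. Of 10 tested FAP markers, 5 fell, 1 rose and 4 did not pass the test (edgeR, adjusted p under 0.05). Pdgfra had 465 CPM with melatonin and 569.6 CPM with vehicle and did not pass (edgeR adjusted p = 0.084). Ly6a, which had 224 CPM with melatonin and 336 CPM with vehicle, was among the 5 that fell, with Dcn, Dpp4, Col1a1 and Col3a1. Gsn was the marker that rose, with 2069 CPM with melatonin and 974 CPM with vehicle, and Thy1 had 491 CPM with melatonin and 426 CPM with vehicle and did not pass (edgeR adjusted p = 0.094). Of 8 adipocyte markers, 7 were tested and all 7 rose, and their summed level was 1085 to 1438 CPM with melatonin and 208.7 to 235.8 CPM with vehicle. The 12 macrophage and leukocyte markers summed to 346 to 641 CPM with melatonin and 522 to 791 CPM with vehicle (3 rose, 2 fell). The 6 pericyte and smooth muscle markers, mostly Acta2, summed to 488 to 733 CPM with melatonin and 1091 to 1249 CPM with vehicle (0 rose, 2 fell). Markers of satellite cells and myoblasts summed to 392 to 534 CPM with melatonin and 545 to 746 CPM with vehicle, mostly from Vcam1, with 1 of 5 tested higher and 1 lower, while Pax7 and Myf5 were not analysed here. Mitochondrially encoded genes held 2.09 to 2.44% of counts with melatonin and 1.05 to 1.3% with vehicle. Endothelial markers summed to 48.9 to 57.7 CPM with melatonin and 32.1 to 40.3 CPM with vehicle (1 of 7 higher, 1 lower). Of the markers of antibody-secreting B cells, which hold much ER, 3 of 10 were tested (1 higher, 1 lower), and their sum of 177 to 254 CPM with melatonin and 241 to 279.99 CPM with vehicle was mostly Sdc1. The part of these marker levels and mitochondrial shares in the results below was not tested, and in bulk libraries fewer cells of a type and less RNA per cell cannot be told apart.

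Of the 34 genes, 19 fell with melatonin, 1 rose and 14 did not pass the test (edgeR quasi-likelihood F-test, Benjamini-Hochberg adjusted p under 0.05 over all tested genes). The 19 that fell are 55.9% of the list. Of all tested genes, 36.5% were called, 18.5% lower and 18.1% higher. The median log2 fold change, melatonin over vehicle, was -0.33 over the 34 genes, against 0.014 over all 16565 tested genes. In 19 of the 34 genes every melatonin library lay below every vehicle library, as it did in 19.2% of all tested genes. The reverse held in 1 gene, Ero1lb, and was not counted over all tested genes. The 2 groups of folding genes, chaperones and oxidative folding enzymes, held 15 of the 19 genes that fell, out of 18 members. The other members that fell were 3 of 4 translocon genes and 1 of 9 ERAD genes. Of the 3 genes for sensors and XBP1, 0 passed the test. With library totals in place of TMM factors, 14 of the 34 fell and 2 rose, and 2237 of all 16565 tested genes fell and 5099 rose. The share of all calls that were higher was then 69.5% in place of 49.4%. The median log2 fold change of all tested genes was 0.17 in place of 0.014. Whether the groups of genes differ from one another was not tested.

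**Figure D1:**
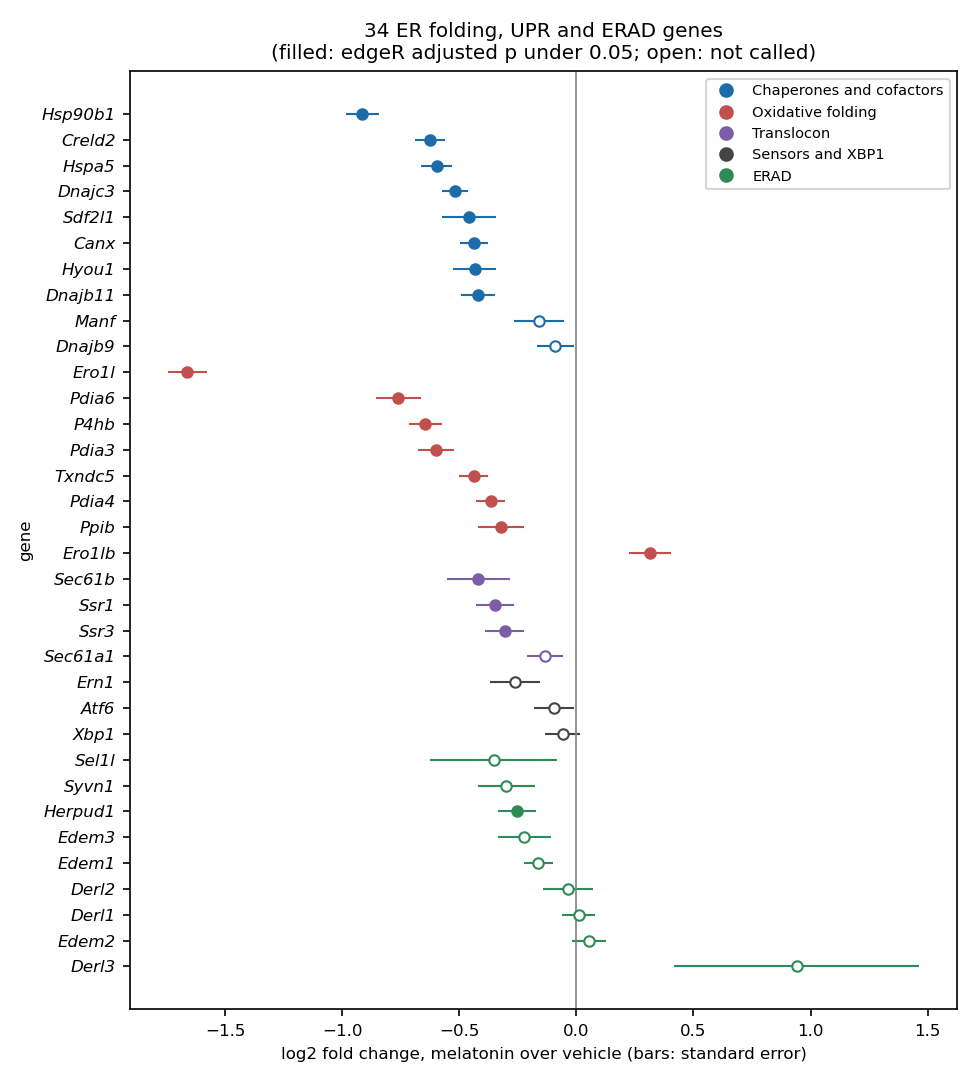
Log2 fold change (melatonin over vehicle, x axis) of the 34 genes (y axis, grouped by role), with standard errors as bars; filled points passed the edgeR test at an adjusted p under 0.05. The filled points of the chaperone and oxidative folding groups lie left of 0 except Ero1lb at 0.32, while 8 of the 9 ERAD points and the 3 points for sensors and XBP1 are open.

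The summed level of the 34 genes was 7508.5, 7781.8, 7533.0 and 8343.6 CPM in the melatonin libraries, against 10815, 11733, 11275 and 10917 CPM in the vehicle libraries. As a share of the deposited counts, this was 0.788, 0.816, 0.811 and 0.874% with melatonin and 1.05, 1.11, 1.03 and 1.04% with vehicle. Each melatonin library thus held a smaller share than each vehicle library, on a measure that uses library totals and no TMM factor. The sum is set mostly by a few abundant genes. Per kilobase of exon, the scale on which genes can be compared, P4hb was highest at 556 ± 34.7 CPM per kb with melatonin and 869.6 ± 52.6 CPM per kb with vehicle, followed by Pdia3 at 271 ± 25.7 CPM per kb with melatonin and 410.1 ± 15.7 CPM per kb with vehicle (SD, n = 4 each). At the low end, Ero1lb stood at 1.29 ± 0.0793 CPM per kb with melatonin and 1.04 ± 0.0269 CPM per kb with vehicle, and Derl3 at 0.275 ± 0.159 CPM per kb with melatonin and 0.140 ± 0.0768 CPM per kb with vehicle. The sensors Ern1 and Atf6 were also low, at 4.68 ± 0.705 CPM per kb with melatonin and 5.62 ± 0.279 CPM per kb with vehicle for Ern1 and 4.77 ± 0.519 CPM per kb with melatonin and 5.10 ± 0.211 CPM per kb with vehicle for Atf6. Ern1 and Atf6 lay within an SD of each other in the melatonin libraries.

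Among the lumenal chaperones and their cofactors, 8 of 10 genes fell and 0 rose with edgeR, where 18.5% of all tested genes fell and 18.1% rose. The same counts were given by an unadjusted p under 0.05, by DESeq2 and by limma-voom. The median log2 fold change of the 10 was -0.45. Hsp90b1 (ENSMUSG00000020048, chr10:86690209-86705509, reverse strand) encodes GRP94, the HSP90 of the ER. It had 454, 480.0, 503 and 523 CPM in the melatonin libraries, against 986, 944, 855 and 909 CPM in the vehicle libraries. The groups did not overlap, and the mean level was 489.9 ± 29.8 CPM with melatonin and 923 ± 55.5 CPM with vehicle (log2 fold change -0.91 ± 0.071, edgeR adjusted p = 1.0e-05), 1.89-fold lower. Hspa5 (ENSMUSG00000026864, chr2:34771970-34777547, forward strand) encodes BiP, the HSP70 of the ER and the chaperone that holds the UPR sensors inactive. Its level was 437, 428, 452 and 436 CPM in the melatonin libraries, against 599, 678, 719 and 655 CPM in the vehicle libraries. All 4 melatonin libraries lay within 428 to 452 CPM, below the lowest vehicle library, and the log2 fold change was -0.60 ± 0.068 (edgeR adjusted p = 1.1e-04). Of the exon bases of Hsp90b1, 10.3% are shared with the opposite-strand gene 1810014B01Rik, and whether counting used strand is not given in the sources used here.

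Several cofactors of BiP also fell, as did Creld2 and Canx. Dnajc3, an ER J-protein that is also known to inhibit the kinase PERK, had 102, 99.9, 106 and 104 CPM in the melatonin libraries, against 154, 144, 143 and 149 CPM in the vehicle libraries. It fell without overlap (log2 fold change -0.52 ± 0.054, edgeR adjusted p = 6.5e-05). Creld2, a secreted ER stress gene with disulfide isomerase activity, had 60.2, 59.9, 60.1 and 67.5 CPM in the melatonin libraries, against 91.2, 98.7, 97.9 and 94.2 CPM in the vehicle libraries. Melatonin replicate 4 was the highest of the melatonin libraries for Creld2 but stayed below every vehicle library (log2 fold change -0.62 ± 0.064, edgeR adjusted p = 5.5e-05). Dnajb11, a J-protein that brings substrates to BiP, averaged 111 ± 7.53 CPM with melatonin and 148 ± 10.3 CPM with vehicle (log2 fold change -0.42 ± 0.074, edgeR adjusted p = 0.0016). The nucleotide exchange factor Hyou1 (GRP170) averaged 116 ± 13.1 CPM with melatonin and 157 ± 10.9 CPM with vehicle (log2 fold change -0.43 ± 0.091, edgeR adjusted p = 0.0042). Canx, the membrane lectin calnexin that binds glycoproteins, averaged 381 ± 21.5 CPM with melatonin and 515 ± 6.90 CPM with vehicle (log2 fold change -0.44 ± 0.060, edgeR adjusted p = 3.6e-04). Sdf2l1, which works with ER J-proteins, averaged 50.8 ± 7.22 CPM with melatonin and 69.8 ± 8.45 CPM with vehicle (log2 fold change -0.46 ± 0.11, edgeR adjusted p = 0.011). These SDs are over 4 libraries each, and for each of Dnajb11, Hyou1, Canx and Sdf2l1 the melatonin libraries lay below the vehicle libraries without overlap.

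Dnajb9 and Manf did not pass the test. Dnajb9, the J-protein ERdj4 and a known target of XBP1, had 33.3, 34.9, 34.2 and 36.7 CPM in the melatonin libraries, against 40.98, 38.1, 32.9 and 36.03 CPM in the vehicle libraries. Its groups overlapped (log2 fold change -0.089 ± 0.080, edgeR adjusted p = 0.42). Manf, a secreted ER stress factor that binds BiP, had 116, 159, 137 and 158 CPM in the melatonin libraries, against 146, 173, 167 and 152 CPM in the vehicle libraries (log2 fold change -0.16 ± 0.11, edgeR adjusted p = 0.28), again with overlap.

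Promoter sequence was held for 29 of the 34 genes in a RefSeq table for GRCm38.p6, as windows from 250 bases before to 50 bases after the transcription start. The others were Atf6, Hyou1, Manf, Derl1 and Sec61a1. Each window was searched on both strands for exact matches to 3 motifs of the UPR. ERSE was taken as CCAAT and CCACG separated by 9 bases, ERSE-II as ATTGG and CCACG separated by 1 base, and the UPR element core as TGACGTGG. ERSE was found in 9 of the 29 member genes (31.0%), against 37 of 27025 genes with a promoter in the table (0.137%). ERSE-II was found in 2 member genes (6.90%) against 12 of all genes (0.0444%), and the UPR element core in 1 (3.45%), Txndc5, against 0.714% of all genes. The letters CCACG alone were in 89.7% of the member genes and in 35.5% of all genes. The genes were chosen as ER and UPR genes and the motifs are those of the UPR, so these shares are not independent of that choice. These matches describe letters in the windows and do not show that a factor binds there.

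The stretches from 200 bases to 1 base before the start are shown for a pair of ERSE genes that fell, Creld2 and Dnajc3, and for the ERSE-II gene Herpud1. They run 5′ to 3′ on the gene's strand, and capitals mark the fixed letters of each match. In Creld2 the match lies on the opposite strand, so these letters appear as their reverse complements.
Creld2, chr15:88819446-88819645, forward strand: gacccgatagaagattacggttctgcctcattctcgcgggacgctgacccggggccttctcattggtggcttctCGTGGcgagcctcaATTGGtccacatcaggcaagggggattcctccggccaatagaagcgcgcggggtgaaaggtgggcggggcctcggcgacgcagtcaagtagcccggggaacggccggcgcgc
Dnajc3, chr14:118937732-118937931, forward strand: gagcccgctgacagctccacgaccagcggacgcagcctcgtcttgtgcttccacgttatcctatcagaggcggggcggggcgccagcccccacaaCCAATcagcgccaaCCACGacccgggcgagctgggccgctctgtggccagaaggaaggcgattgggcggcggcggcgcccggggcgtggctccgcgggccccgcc
Herpud1, chr8:94386229-94386428, forward strand: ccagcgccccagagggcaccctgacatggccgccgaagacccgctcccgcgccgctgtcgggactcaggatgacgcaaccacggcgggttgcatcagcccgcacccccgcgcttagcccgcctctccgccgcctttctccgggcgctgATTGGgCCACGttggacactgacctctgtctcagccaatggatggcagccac

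The other matches are shown 5′ to 3′ on the strand that reads the motif, with 5 bases on each side and the fixed letters in capitals, because they let the sites of genes with different changes be set side by side. Hsp90b1 held a pair of matches. Hspa5, Hsp90b1, Canx and Pdia6 fell, as did Dnajb11, whose match is an ERSE-II, and Txndc5, whose match is the UPR element core. Ero1lb rose, and Syvn1 and Derl3 did not pass the test.
Hspa5, chr2:34772020-34772048, same strand as the gene: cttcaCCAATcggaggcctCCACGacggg
Hsp90b1, chr10:86705633-86705661, same strand as the gene: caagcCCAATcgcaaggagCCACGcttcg
Hsp90b1, chr10:86705528-86705556, strand opposite to the gene: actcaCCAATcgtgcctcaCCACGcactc
Canx, chr11:50325795-50325823, same strand as the gene: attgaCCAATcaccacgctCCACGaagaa
Pdia6, chr12:17266486-17266514, same strand as the gene: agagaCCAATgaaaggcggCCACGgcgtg
Dnajb11, chr16:22857847-22857867, same strand as the gene: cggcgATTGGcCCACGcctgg
Txndc5, chr13:38528040-38528057, same strand as the gene: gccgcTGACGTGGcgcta
Ero1lb, chr13:12565677-12565705, strand opposite to the gene: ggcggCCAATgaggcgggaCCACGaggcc
Syvn1, chr19:6046527-6046555, same strand as the gene: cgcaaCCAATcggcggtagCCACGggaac
Derl3, chr10:75893237-75893265, strand opposite to the gene: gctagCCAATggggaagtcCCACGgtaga
Of the 11 genes with an ERSE or ERSE-II match, 8 fell, 1 rose and 2 did not pass the test, with log2 fold changes from -0.91 to 0.94 and a median of -0.44. Of the 18 genes with a window and neither match, 10 fell, 0 rose and 8 did not pass the test, with log2 fold changes from -1.66 to 0.054 and a median of -0.33. Both kinds of promoter were therefore found among genes that fell, and the largest decrease of the 34 genes, that of Ero1l, was in a gene without an exact match. Whether genes with and without a match differ was not tested.

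Oxidative folding held the largest single change and the only called increase among the 34 genes. Of its 8 members 7 fell and 1 rose, where 18.5% of all tested genes fell and 18.1% rose. The median log2 fold change of the 8 was -0.52. The 2 ERO1 genes, whose enzymes pass oxidizing equivalents to protein disulfide isomerase, moved in opposite directions. Ero1l (ENSMUSG00000021831, chr14:45283087-45318771, reverse strand), also called Ero1a, had 84.2, 107, 105 and 99.9 CPM in the melatonin libraries, against 318, 329, 299 and 305 CPM in the vehicle libraries. Every melatonin library was well below every vehicle library, and the level was 3.16-fold lower with melatonin (log2 fold change -1.66 ± 0.084, edgeR adjusted p = 9.1e-07). Ero1lb (ENSMUSG00000057069, chr13:12565874-12611396, forward strand), also called Ero1b, had 7.94, 9.03, 8.34 and 8.99 CPM in the melatonin libraries, against 7.06, 6.76, 6.71 and 7.02 CPM in the vehicle libraries. Its melatonin libraries lay above its vehicle libraries (log2 fold change 0.32 ± 0.090, edgeR adjusted p = 0.021). This call is narrow: it is lost without melatonin replicate 2 (edgeR adjusted p = 0.059), vehicle replicate 2 (0.052) or vehicle replicate 3 (0.055). Per kilobase of exon, Ero1l exceeded Ero1lb by 13.3, 14.9, 15.8 and 14.00 times in the melatonin libraries and by 56.7, 61.3, 56.2 and 54.7 times in the vehicle libraries, a ratio within each library that does not depend on scaling and was given no test.

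The 34 genes include 5 members of the protein disulfide isomerase family, and all 5 fell, where 18.5% of all tested genes fell. P4hb (ENSMUSG00000025130, chr11:120560298-120573253, reverse strand), the classical protein disulfide isomerase and also the beta subunit of collagen prolyl 4-hydroxylase, had 1535, 1618, 1495 and 1719 CPM in the melatonin libraries, against 2313, 2678, 2505 and 2456 CPM in the vehicle libraries. The groups did not overlap (log2 fold change -0.64 ± 0.071, edgeR adjusted p = 9.3e-05). Pdia6 had 344, 358, 328 and 430.0 CPM in the melatonin libraries, against 572, 673, 639 and 589 CPM in the vehicle libraries, with melatonin replicate 4 the highest of its group (log2 fold change -0.76 ± 0.095, edgeR adjusted p = 2.0e-04). Pdia3 (ERp57), which folds glycoproteins together with calnexin and calreticulin, averaged 851 ± 80.7 CPM with melatonin and 1287 ± 49.3 CPM with vehicle (log2 fold change -0.60 ± 0.077, edgeR adjusted p = 2.4e-04). Pdia4 averaged 374 ± 21.5 CPM with melatonin and 481 ± 16.7 CPM with vehicle (log2 fold change -0.37 ± 0.063, edgeR adjusted p = 0.0014). Txndc5 averaged 379 ± 22.9 CPM with melatonin and 513 ± 12.7 CPM with vehicle (log2 fold change -0.44 ± 0.063, edgeR adjusted p = 4.5e-04). In each of these 5 genes every melatonin library lay below every vehicle library.

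Ppib, the ER prolyl isomerase cyclophilin B, fell with overlapping groups. It had 365, 366, 340.3 and 457 CPM in the melatonin libraries, against 430.2, 506, 498 and 474 CPM in the vehicle libraries (log2 fold change -0.32 ± 0.10, edgeR adjusted p = 0.028), and melatonin replicate 4 lay above vehicle replicate 1. Of its exon bases 25.0% are shared with the opposite-strand gene Snx22, so its counts may hold reads of both. The Ppib call is lost when any of 6 single libraries is left out, with edgeR adjusted p-values of 0.061 to 0.085.

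**Figure D2:**
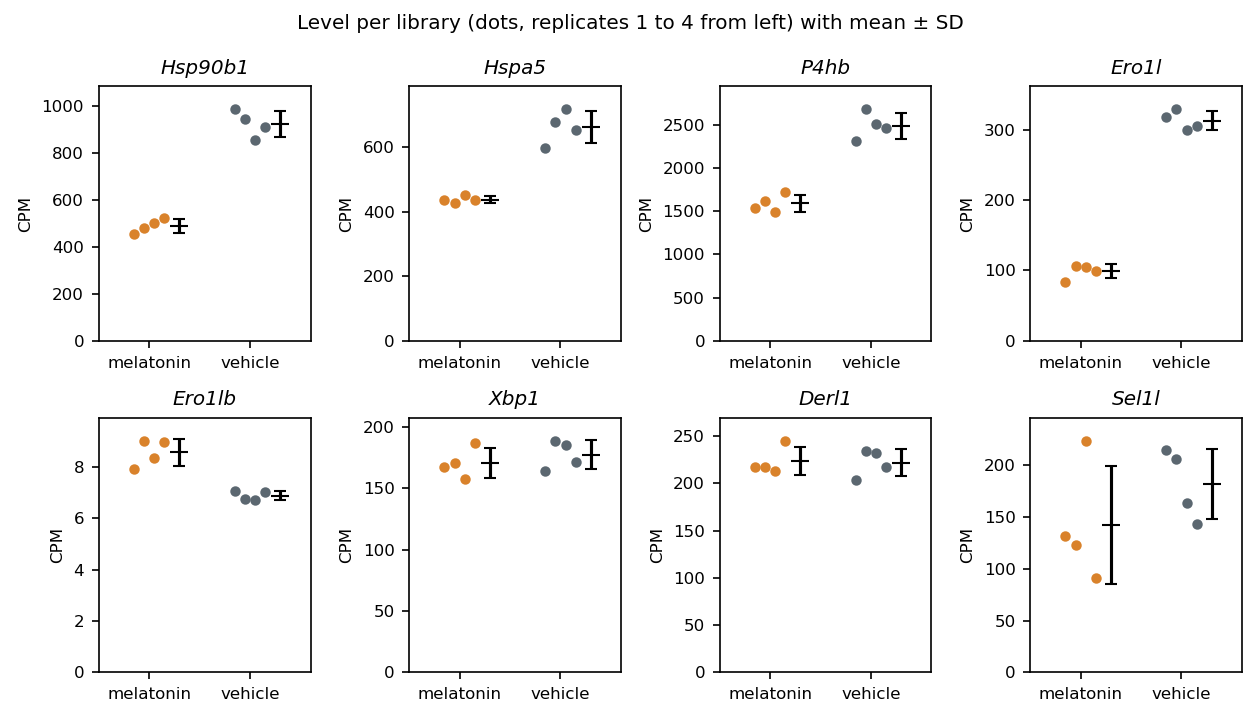
Level in CPM (y axis, from 0) of 8 genes in each library, with the mean ± SD over 4 libraries beside each group. Hsp90b1, Hspa5, P4hb and Ero1l are lower in every melatonin library and Ero1lb is higher, while the groups of Xbp1, Derl1 and Sel1l overlap.

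At the translocon, 3 of 4 genes fell and 0 rose with edgeR, where 18.5% of all tested genes fell and 18.1% rose. The same counts were given by an unadjusted p under 0.05, by DESeq2 and by limma-voom. Ssr1 and Ssr3 encode subunits of the translocon-associated protein complex, and Sec61b and Sec61a1 encode the beta and alpha subunits of the channel itself. Ssr1 had 187, 192, 186 and 229.7 CPM in the melatonin libraries, against 237, 263, 261 and 249 CPM in the vehicle libraries. Melatonin replicate 4 again stood above the other melatonin libraries, and the groups did not overlap (log2 fold change -0.35 ± 0.081, edgeR adjusted p = 0.0078). Ssr3 averaged 278 ± 33.00 CPM with melatonin and 344 ± 11.3 CPM with vehicle (log2 fold change -0.31 ± 0.084, edgeR adjusted p = 0.017). Sec61b had 71.1, 68.2, 61.3 and 98.4 CPM in the melatonin libraries, against 93.2, 109, 103 and 94.05 CPM in the vehicle libraries (log2 fold change -0.42 ± 0.14, edgeR adjusted p = 0.036), with overlap through melatonin replicate 4. Sec61a1 averaged 297 ± 18.9 CPM with melatonin and 326 ± 25.9 CPM with vehicle and did not pass the test (log2 fold change -0.13 ± 0.077, edgeR adjusted p = 0.20). The 3 calls depend on the scaling: with library totals in place of TMM factors, Ssr1, Ssr3 and Sec61b are no longer called. Leaving out any of 7 single libraries ends the Sec61b call (edgeR adjusted p-values 0.054 to 0.10), and leaving out melatonin replicate 1, 2 or 3 ends the Ssr3 call (0.057 to 0.068).

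For the sensors and XBP1, 0 of 3 genes passed the test with edgeR, DESeq2 or limma-voom, where edgeR called 36.5% of all tested genes. At an unadjusted p under 0.05, 1 of the 3, Ern1, fell. Ern1, which encodes the kinase and RNase IRE1, had 43.3, 36.7, 42.3 and 30.8 CPM in the melatonin libraries, against 45.7, 42.9, 48.4 and 46.7 CPM in the vehicle libraries. Its lowest value was in melatonin replicate 4 (log2 fold change -0.26 ± 0.11, edgeR adjusted p = 0.081). Atf6, which encodes a membrane-bound factor released by cleavage, had 46.5, 41.2, 49.5 and 39.1 CPM in the melatonin libraries, against 48.1, 44.3, 47.3 and 48.6 CPM in the vehicle libraries (log2 fold change -0.10 ± 0.085, edgeR adjusted p = 0.42). Xbp1, the transcription factor whose RNA is spliced by IRE1, had 167, 170.4, 157 and 187 CPM in the melatonin libraries, against 164, 189, 185 and 172 CPM in the vehicle libraries, and the groups overlapped (log2 fold change -0.059 ± 0.073, edgeR adjusted p = 0.57). Counts per gene do not separate spliced from unspliced Xbp1 RNA, nor cleaved from full-length ATF6, so they do not measure the activity of either branch.

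Of the ERAD genes, 1 of 9 fell (11.1%) and 0 rose with edgeR, where 18.5% of all tested genes fell and 18.1% rose. The same counts were given by limma-voom. With library totals in place of TMM factors 0 of the 9 fell and 1, Edem2, rose. At that setting 2237 of all 16565 tested genes fell and 5099 rose. At an unadjusted p under 0.05, 3 fell and 0 rose, and DESeq2 called 2 lower and 0 higher. The median log2 fold change of the 9 genes was -0.16, and -0.0036 with library totals. Herpud1, a membrane protein of the ERAD complex and a known UPR target, had 56.69, 62.33, 56.37 and 68.78 CPM in the melatonin libraries, against 70.31, 73.80, 68.83 and 78.28 CPM in the vehicle libraries. It fell (log2 fold change -0.25 ± 0.081, edgeR adjusted p = 0.032), with groups that did not overlap, and leaving out any of 6 single libraries ends the call (edgeR adjusted p 0.051 to 0.12). Edem1, one of the mannosidase-like proteins that mark glycoproteins for degradation, had 93.7, 90.6, 97.4 and 101 CPM in the melatonin libraries, against 102, 113, 110.0 and 104 CPM in the vehicle libraries (log2 fold change -0.16 ± 0.062, edgeR adjusted p = 0.065). Its groups did not overlap, and it is called under DESeq2 (adjusted p = 0.038) and, in edgeR, without melatonin replicate 4 (adjusted p = 0.030). Edem2 averaged 53.4 ± 3.23 CPM with melatonin and 51.5 ± 3.07 CPM with vehicle (log2 fold change 0.054 ± 0.071, edgeR adjusted p = 0.60), and Edem3 averaged 43.1 ± 7.03 CPM with melatonin and 50.3 ± 3.05 CPM with vehicle (log2 fold change -0.22 ± 0.11, edgeR adjusted p = 0.16).

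The ubiquitin ligase HRD1 (Syvn1) and its partner SEL1L form the channel complex of ERAD with the derlins. Syvn1 had 54.02, 57.3, 55.1 and 37.7 CPM in the melatonin libraries, against 64.4, 59.9, 66.2 and 60.8 CPM in the vehicle libraries. Melatonin replicate 4 was far below the other melatonin libraries, and the groups did not overlap (log2 fold change -0.30 ± 0.12, edgeR adjusted p = 0.081). Sel1l had 131, 123, 223 and 90.9 CPM in the melatonin libraries, against 214, 206, 164 and 143 CPM in the vehicle libraries. Melatonin replicate 3 was the highest of the 8 libraries and melatonin replicate 4 the lowest (log2 fold change -0.35 ± 0.27, edgeR adjusted p = 0.35). Without melatonin replicate 3 the Sel1l log2 fold change is -0.65 and the gene is called lower (edgeR adjusted p = 0.025). Derl1 had 217, 217, 213 and 245 CPM in the melatonin libraries, against 204, 234, 232 and 218 CPM in the vehicle libraries, with a log2 fold change near 0 and overlap (log2 fold change 0.0092 ± 0.071, edgeR adjusted p = 0.94). Derl2 averaged 41.9 ± 5.83 CPM with melatonin and 42.9 ± 3.62 CPM with vehicle (log2 fold change -0.035 ± 0.11, edgeR adjusted p = 0.83). Derl3 was measured on few counts, 15 to 38 in the melatonin libraries and 3 to 21 in the vehicle libraries, and its level was 0.445, 0.355, 0.373 and 1.02 CPM in the melatonin libraries, against 0.282, 0.347, 0.0658 and 0.421 CPM in the vehicle libraries (log2 fold change 0.94 ± 0.52, edgeR adjusted p = 0.19). The Derl3 log2 fold change was 0.49 without melatonin replicate 4 and 0.62 without vehicle replicate 3.

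**Figure D3:**
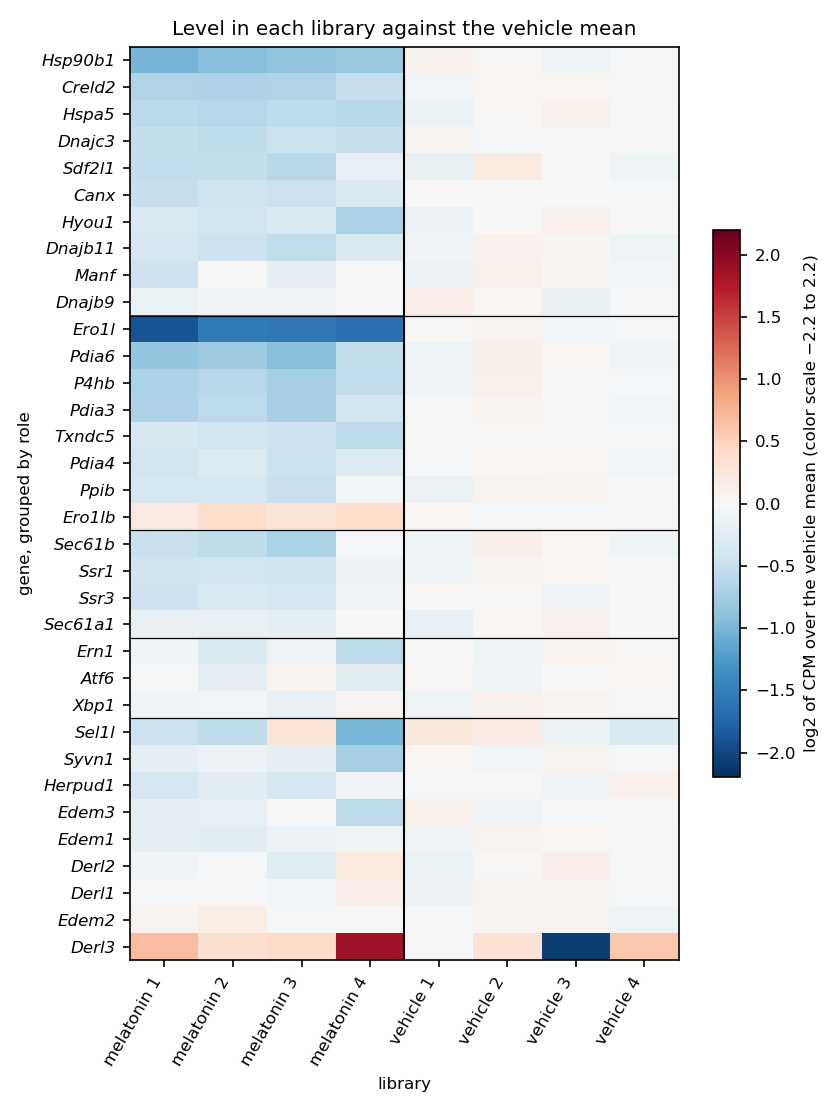
Log2 of the CPM in each library over the vehicle mean (color) for the 34 genes (rows, grouped by role from chaperones at the top through oxidative folding, translocon, sensors and XBP1 to ERAD at the bottom) in the 4 melatonin and 4 vehicle libraries (columns). Ero1l is the darkest blue row across the melatonin libraries, most ERAD rows are pale, and Derl3 holds the outlying values of melatonin replicate 4 and vehicle replicate 3, which had 38 and 3 counts.

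Within each library the folding genes can be set against the ERAD genes, a difference that does not depend on the scaling factor. The median log2 level over the vehicle mean was -0.52, -0.49, -0.52 and -0.46 for the 18 folding genes in the melatonin libraries and -0.043, 0.046, 0.024 and -0.032 in the vehicle libraries. For the 9 ERAD genes it was -0.19, -0.13, -0.058 and -0.082 in the melatonin libraries and -0.038, 0.057, 0.041 and -0.035 in the vehicle libraries. The folding median minus the ERAD median was -0.33, -0.36, -0.46 and -0.38 with melatonin and -0.0050, -0.011, -0.017 and 0.0035 with vehicle. Each melatonin library therefore showed the gap and no vehicle library did; as the vehicle libraries define the zero, this is a description and was given no test.

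**Figure D4:**
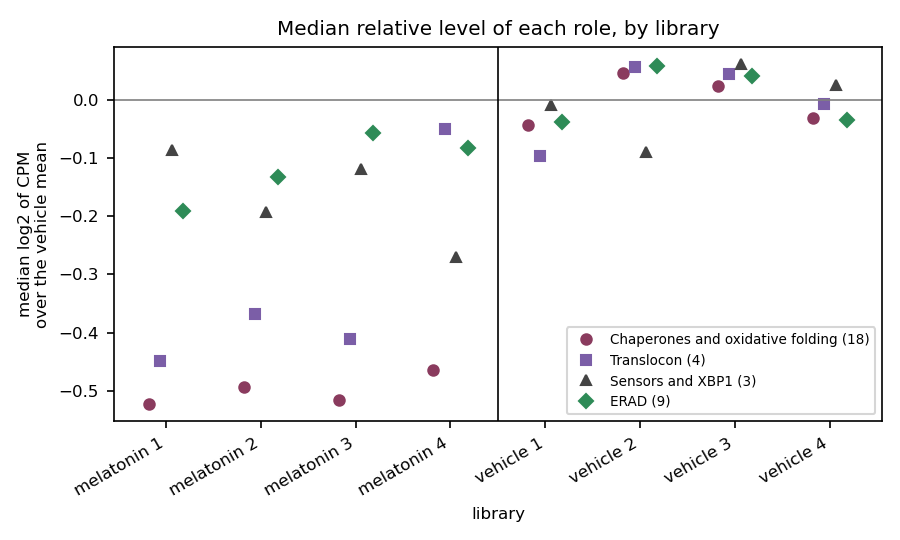
Median log2 of CPM over the vehicle mean (y axis) for each group of genes in each library (x axis). In the melatonin libraries the 18 folding genes lie between -0.52 and -0.46 and the 9 ERAD genes between -0.19 and -0.058, while the translocon genes of melatonin replicate 4 lie at -0.050, above those of the other melatonin libraries.

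Further ER genes came from 11 lists that hold none of the 34 genes and from which up to 2 called genes in each direction with the smallest p are named, with SDs over 4 libraries a group throughout. In the PERK arm and integrated stress response, 2 of 20 genes rose (10%) and 4 fell (20%), where 18.1% of all tested genes rose and 18.5% fell. Ddit3, the transcription factor CHOP, rose, with an average of 95.9 ± 7.05 CPM with melatonin and 67.3 ± 4.28 CPM with vehicle (log2 fold change 0.51 ± 0.074, edgeR adjusted p = 5.0e-04). Sesn2, a stress-induced regulator of growth signalling, averaged 129 ± 6.69 CPM with melatonin and 105 ± 3.73 CPM with vehicle (log2 fold change 0.30 ± 0.060, edgeR adjusted p = 0.0035). The cystine transporter gene Slc7a11 averaged 10.01 ± 1.43 CPM with melatonin and 29.7 ± 2.66 CPM with vehicle (log2 fold change -1.57 ± 0.12, edgeR adjusted p = 9.0e-06), and Vldlr, a lipoprotein receptor, 25.7 ± 1.86 CPM with melatonin and 48.1 ± 2.83 CPM with vehicle (log2 fold change -0.90 ± 0.078, edgeR adjusted p = 2.0e-05). Atf4 and Eif2ak3, which encodes PERK, did not pass the test. Atf4 averaged 206 ± 16.2 CPM with melatonin and 211 ± 8.51 CPM with vehicle (log2 fold change -0.030 ± 0.070, edgeR adjusted p = 0.77), and Eif2ak3 averaged 43.3 ± 1.48 CPM with melatonin and 48.2 ± 2.77 CPM with vehicle (log2 fold change -0.15 ± 0.066, edgeR adjusted p = 0.094). At an unadjusted p under 0.05, 2 genes of this list rose and 8 fell. For this and the other lists, the shares over all tested genes are at an adjusted p under 0.05, not at this threshold. DESeq2 called 2 higher and 6 lower, and limma-voom 2 higher and 4 lower. Without melatonin replicate 1, 2 or 3 the count lower was 2, and without melatonin replicate 4 it was 6. With library totals in place of TMM factors 3 rose and 2 fell, where 5099 of all 16565 tested genes rose and 2237 fell.

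Among relatives of ATF6 and their proteases, 4 of 11 tested genes (36.4%) fell and 0 rose (edgeR), where 18.5% of all tested genes fell and 18.1% rose. At an unadjusted p under 0.05, 5 fell and 0 rose, and DESeq2 and limma-voom each called 4 lower and 0 higher. Creb3l1, a membrane-bound factor known for driving collagen secretion in fibroblasts and bone cells, averaged 112 ± 12.6 CPM with melatonin and 157 ± 11.2 CPM with vehicle (log2 fold change -0.49 ± 0.089, edgeR adjusted p = 0.0019). Creb3l3, a relative known from liver, was low, at 0.220 ± 0.0876 CPM with melatonin and 1.06 ± 0.226 CPM with vehicle (log2 fold change -2.26 ± 0.34, edgeR adjusted p = 6.0e-04). Atf6b averaged 122 ± 4.83 CPM with melatonin and 115 ± 5.32 CPM with vehicle (log2 fold change 0.084 ± 0.060, edgeR adjusted p = 0.31) and did not pass the test. With library totals in place of TMM factors this list has 2 genes lower and 3 higher, and all 16565 tested genes have 2237 lower and 5099 higher. Without melatonin replicate 4 the list of ATF6 relatives has 1 higher. Other lumenal folding genes fell in 16 of 37 cases (43.2%) and rose in 4, or 11 and 8 with library totals and 7 higher without melatonin replicate 3. Calr, the lectin chaperone calreticulin, averaged 1469 ± 104 CPM with melatonin and 2340.3 ± 141 CPM with vehicle (log2 fold change -0.67 ± 0.074, edgeR adjusted p = 9.0e-05), and the disulfide isomerase gene Pdia5 73.1 ± 4.05 CPM with melatonin and 109 ± 4.47 CPM with vehicle (log2 fold change -0.58 ± 0.063, edgeR adjusted p = 8.6e-05). Higher were Tmx2, at 81.7 ± 6.61 CPM with melatonin and 52.6 ± 4.43 CPM with vehicle (log2 fold change 0.64 ± 0.084, edgeR adjusted p = 2.8e-04), and Txndc16, at 75.1 ± 2.54 CPM with melatonin and 53.8 ± 2.40 CPM with vehicle (log2 fold change 0.48 ± 0.060, edgeR adjusted p = 2.0e-04).

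Collagen folding genes fell in 14 of 19 cases (73.7%) and 0 rose (edgeR), where 18.5% of all tested genes fell and 18.1% rose. Their median log2 fold change was -0.48. At an unadjusted p under 0.05, 15 fell and 0 rose, and DESeq2 and limma-voom each called 14 lower and 0 higher. With library totals 11 fell, where 2237 of all 16565 tested genes fell and 5099 rose. P4ha2, a catalytic subunit of collagen prolyl 4-hydroxylase and partner of P4hb, averaged 446 ± 24.5 CPM with melatonin and 1150.2 ± 72.5 CPM with vehicle (log2 fold change -1.37 ± 0.071, edgeR adjusted p = 9.9e-07), and P4ha1 averaged 353 ± 22.04 CPM with melatonin and 621 ± 35.2 CPM with vehicle (log2 fold change -0.82 ± 0.070, edgeR adjusted p = 1.9e-05). Serpinh1, the collagen chaperone HSP47, averaged 683 ± 22.03 CPM with melatonin and 899.8 ± 33.01 CPM with vehicle (log2 fold change -0.40 ± 0.058, edgeR adjusted p = 5.2e-04). Genes of the COPII coat and ER exit fell in 13 of 27 cases (48.1%) and 1 rose, or 8 and 2 with library totals. The coat gene Sec23a averaged 88.6 ± 4.55 CPM with melatonin and 146 ± 1.39 CPM with vehicle (log2 fold change -0.72 ± 0.057, edgeR adjusted p = 1.2e-05), and the cargo receptor gene Surf4 585 ± 29.8 CPM with melatonin and 1008 ± 55.6 CPM with vehicle (log2 fold change -0.78 ± 0.067, edgeR adjusted p = 1.8e-05). Preb, the exchange factor that starts coat assembly, was the gene that rose, at 53.8 ± 6.63 CPM with melatonin and 41.4 ± 3.46 CPM with vehicle (log2 fold change 0.38 ± 0.10, edgeR adjusted p = 0.014).

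Of ERAD genes outside the 34, 10 of 48 rose (20.8%) and 3 fell (6.25%), where 18.1% of all tested genes rose and 18.5% fell. The share that rose was thus near that of all tested genes. The ubiquitin ligase genes Rnf5 and Rnf185 rose, Rnf5 with 40.6 ± 2.83 CPM with melatonin and 30.5 ± 2.37 CPM with vehicle (log2 fold change 0.41 ± 0.081, edgeR adjusted p = 0.0030) and Rnf185 with 49.9 ± 2.31 CPM with melatonin and 36.9 ± 2.57 CPM with vehicle (log2 fold change 0.43 ± 0.073, edgeR adjusted p = 0.0012). Fam8a1, a partner of HRD1, averaged 53.8 ± 2.53 CPM with melatonin and 65.3 ± 0.882 CPM with vehicle (log2 fold change -0.28 ± 0.059, edgeR adjusted p = 0.0042), and Nploc4, a cofactor of the extraction ATPase, averaged 120.4 ± 3.49 CPM with melatonin and 136 ± 4.37 CPM with vehicle (log2 fold change -0.17 ± 0.055, edgeR adjusted p = 0.031). With library totals in place of TMM factors 21 rose and 0 fell (edgeR), where 5099 of all 16565 tested genes rose and 2237 fell. Without vehicle replicate 1, 2 or 4 the count higher was 6, the count lower was 6 without melatonin replicate 4, and it was 1 without vehicle replicate 3 or 4.

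N-glycan and calnexin cycle genes fell in 9 of 34 cases (26.5%) and rose in 6 (17.6%), where 18.5% of all tested genes fell and 18.1% rose. With library totals 3 fell and 9 rose, where 2237 of all 16565 tested genes fell and 5099 rose. The oligosaccharyltransferase subunit genes Stt3a and Magt1 were lower, Stt3a with 255 ± 16.98 CPM with melatonin and 353 ± 16.2 CPM with vehicle (log2 fold change -0.47 ± 0.068, edgeR adjusted p = 5.0e-04) and Magt1 with 37.9 ± 2.22 CPM with melatonin and 52.2 ± 1.05 CPM with vehicle (log2 fold change -0.46 ± 0.065, edgeR adjusted p = 4.0e-04). Alg1 and Dolpp1, whose enzymes act on the dolichol carrier, were higher. Alg1 averaged 71.2 ± 4.57 CPM with melatonin and 52.6 ± 2.16 CPM with vehicle (log2 fold change 0.44 ± 0.067, edgeR adjusted p = 6.9e-04). Dolpp1 averaged 15.3 ± 1.123 CPM with melatonin and 10.9 ± 0.424 CPM with vehicle (log2 fold change 0.49 ± 0.086, edgeR adjusted p = 0.0015). Other translocation and signal peptidase genes had 6 of 33 higher (18.2%) and 6 lower (18.2%), near the shares of all tested genes. The counts were 13 higher and 2 lower with library totals, and 11 lower without melatonin replicate 4. Tram2, a translocation protein, averaged 48.1 ± 4.60 CPM with melatonin and 70.4 ± 1.66 CPM with vehicle (log2 fold change -0.55 ± 0.077, edgeR adjusted p = 4.1e-04), and the HSP70 gene Hspa13 41.9 ± 4.04 CPM with melatonin and 56.6 ± 2.95 CPM with vehicle (log2 fold change -0.43 ± 0.081, edgeR adjusted p = 0.0023). Emc9, a subunit of the ER membrane complex, averaged 13.4 ± 2.19 CPM with melatonin and 6.34 ± 0.604 CPM with vehicle (log2 fold change 1.08 ± 0.13, edgeR adjusted p = 1.9e-04), and Wrb, a receptor for tail-anchored proteins, 23.4 ± 1.87 CPM with melatonin and 15.1 ± 1.65 CPM with vehicle (log2 fold change 0.63 ± 0.10, edgeR adjusted p = 8.4e-04). ER calcium genes fell in 6 of 17 cases (35.3%) and rose in 2 (11.8%), or 5 in each direction with library totals. Nucb2 averaged 32.6 ± 3.89 CPM with melatonin and 68.6 ± 4.35 CPM with vehicle (log2 fold change -1.08 ± 0.094, edgeR adjusted p = 2.1e-05) and Rcn1 308 ± 6.46 CPM with melatonin and 429 ± 11.4 CPM with vehicle (log2 fold change -0.48 ± 0.054, edgeR adjusted p = 1.0e-04), both calcium-binding proteins. Tmem38a, a cation channel of the ER, averaged 21.8 ± 2.25 CPM with melatonin and 15.8 ± 1.28 CPM with vehicle (log2 fold change 0.47 ± 0.10, edgeR adjusted p = 0.0042), and the plasma membrane calcium channel gene Orai1 41.9 ± 3.37 CPM with melatonin and 32.6 ± 2.92 CPM with vehicle (log2 fold change 0.36 ± 0.088, edgeR adjusted p = 0.0096).

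**Figure D5:**
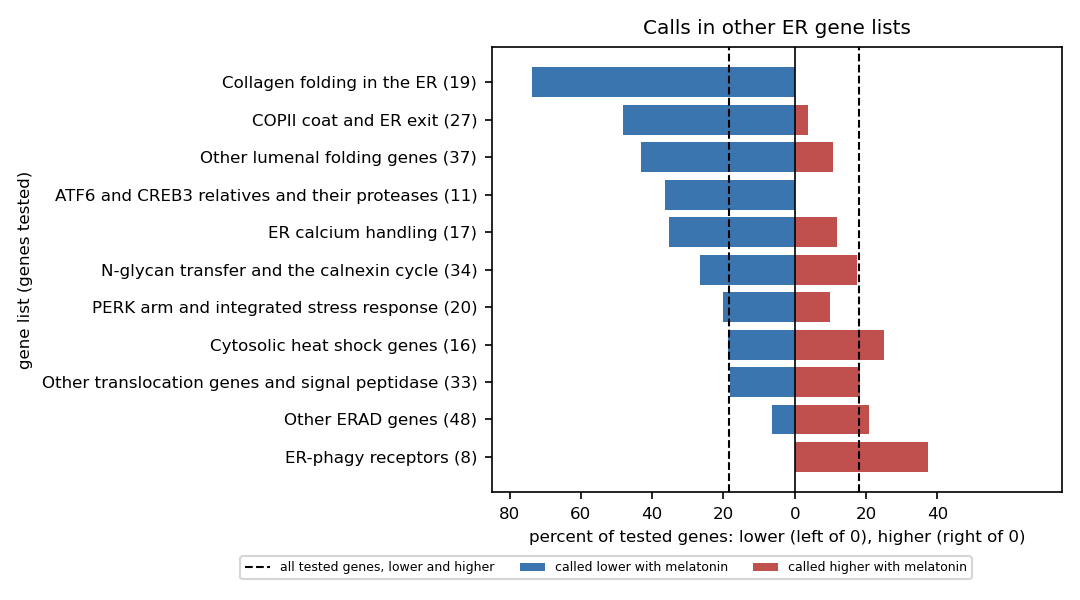
Percent of tested genes called lower (left of 0) and higher (right of 0) with melatonin in 11 further gene lists, with dashed lines at the 18.5% lower and 18.1% higher of all tested genes. Collagen folding genes reach 73.7% lower with none higher, whereas other ERAD genes reach 6.25% lower and 20.8% higher.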

How the data were processed

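The authors deposited a table of raw counts per Ensembl gene for 8 RNA-seq libraries, with every gene totalling at least 11 counts. The submitters' processing notes list HISAT2 2.0 and StringTie 1.3.3b, beside Trimmomatic 0.36, FastQC 0.11.2, DESeq2 1.12.4 and bedtools 2.26.0, and the build mm10. Which program counted, on which annotation and whether by strand, is not given in the sources used here. Columns prefixed as control were read as vehicle. Symbols and positions came from GENCODE M21 on GRCm38, which holds 20720 of the 20781 gene IDs.

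Genes were filtered with filterByExpr, which kept 16565, and libraries were scaled with TMM factors (1.05 to 1.08 for melatonin, 0.916 to 0.974 for vehicle). Melatonin and vehicle were compared in R 4.3.3 with the robust quasi-likelihood F-test of edgeR 4.0.16, with group as the term and Benjamini-Hochberg adjustment over all tested genes at a threshold of 0.05; fold changes are melatonin over vehicle and standard errors were derived from the F statistic. The procedure was tested on simulated data. CPM were computed from the counts with TMM-scaled library sizes, and divided by exon length for levels per kilobase. The alternatives tried were limma-voom (limma 3.58.1), DESeq2 1.42.0, library totals without TMM, other scaling factors, other filters, a threshold of 0.01, a replicate block, and leaving out each library. Counts at an unadjusted p under 0.05 have no share over all tested genes beside them. Intervals of counting error assume independent reads, and molecular identifiers are not described.

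Libraries within a group differed by more than sampling noise (chi-square 23.5 to 74.4 per gene). The labels give 4 biological replicates per group without saying whether each is a separate animal or culture, so p-values measure the spread between these libraries. The 34 genes and all lists were chosen with earlier results of these data known. Named genes are all members; up to 2 called genes per direction with the smallest p from each further list; and Eif2ak3, Atf4, Ddit3, Atf6b, Calr and Serpinh1; marker genes are named where their level is given. Tex264 falls outside this rule and was named after its value was seen. Genes of a near-identical copy or an overlapping neighbour may share reads.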

Additional observations from a re-analysis of the deposited data

Results flagged for a closer look

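In 15 of 152 groups of 4 libraries, 1 library stood far from the other 3 relative to the range of its group. Chance gives about 1 in 20 such groups, and the genes are not independent. Of the 15, 8 concern melatonin replicate 4, and 6 concern members of the list of 34. Values are in CPM, with the range of the other 3 libraries of the group after each.

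In melatonin replicate 4, Sdf2l1 was 61.53 against 45.76 to 48.24, Creld2 was 67.54 against 59.87 to 60.19, and Ssr1 was 229.7 against 185.7 to 191.6. Derl1 was 245.0 against 213.1 to 217.5, and Derl3 was 1.019 against 0.3545 to 0.4453. Among the flagged members, Syvn1 was the one that stood low there, at 37.71 against 54.02 to 57.29. Other members, such as Ern1 and Hyou1, also had their lowest value in melatonin replicate 4 without being flagged. In the same library Atf4 was 230.7 against 197.8 to 198.8, and Retreg2 was 70.01 against 63.39 to 63.78. Without melatonin replicate 4, 20 of the 34 genes fell and 1 rose (edgeR adjusted p under 0.05).

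Single other libraries stood apart for genes of the further lists. Melatonin replicate 3 had 67.06 for Pdia5 against 74.33 to 75.59. Vehicle replicate 1 had 60.86 for Ddit3 against 69.31 to 69.59, 66.65 for Fam8a1 against 64.77 to 64.98, 850.8 for Serpinh1 against 910.4 to 921.2, and 144.1 for Sec23a against 146.8 to 146.9. Vehicle replicate 2 had 17.69 for Tmem38a against 15.06 to 15.25, and vehicle replicate 4 had 52.38 for Eif2ak3 against 46.67 to 47.14.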

How the results depend on the processing

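Of the 34 genes, 13 were called lower under each of the 17 alternatives: Hspa5, Hsp90b1, Hyou1, Canx, Dnajb11, Dnajc3, Creld2, Pdia3, Pdia4, Pdia6, P4hb, Txndc5 and Ero1l. The count called lower was 19 with edgeR, 20 with DESeq2, 19 with limma-voom, 14 at an adjusted p under 0.01 and 14 with library totals only, and 15 to 20 when 1 library was left out. The count called higher was 1, against 0 at 0.01, 2 with library totals (Ero1lb and Edem2) and 0 to 1 when 1 library was left out. Over all genes, 6054 were called, against 3865 at 0.01, 6532 with DESeq2, 6097 with limma-voom and 5098 to 6566 when 1 library was left out. Library totals moved the share of calls that are higher from 49.4% to 69.5%, the median of the 34 genes to -0.18 (against -0.31 to -0.37 when 1 library was left out), and their summed level to 8224 CPM with melatonin and 10585 CPM with vehicle. They also ended the calls of Ppib, Herpud1, Sec61b, Ssr1 and Ssr3, and reversed the sign for Dnajb9 (0.065), Atf6 (0.063), Xbp1 (0.099), Derl2 (0.12) and Sec61a1 (0.024), none of them called. Derl1 became -0.0032 with a minimum of 1 CPM in 4 libraries and -0.031 to 0.045 over the fits without 1 library, and Derl2 ranged from -0.12 to 0.051 over those fits. CCACG alone was found in 26 members, against 9 with the full ERSE. The cause of these changes was not tested.

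No pairing by replicate number was seen. The correlations of same-numbered libraries were 0.035, -0.046, -0.029 and 0.0043, within the -0.12 to 0.17 of the other pairs. These values cannot exclude a pairing. With a replicate block, 18 of the 34 genes were called lower, 0 higher, and 4942 of all genes were called. Depth limits Derl3, with 3 to 38 counts a library.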

Other observations

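The list of cytosolic heat shock genes also held the mitochondrial Hspd1. Of its 16 genes 4 rose (25%) and 3 fell (18.8%), near the 18.1% and 18.5% of all tested genes (edgeR adjusted p under 0.05). The median log2 fold change was -0.0043. With library totals in place of TMM factors 7 rose and 2 fell, where 5099 of all 16565 tested genes rose and 2237 fell. Without vehicle replicate 1 or 4 the count higher was 2. The inducible HSP70 genes Hspa1a and Hspa1b fell, Hspa1a with 29.6 ± 5.45 CPM with melatonin and 60.6 ± 4.91 CPM with vehicle (log2 fold change -1.03 ± 0.13, edgeR adjusted p = 2.1e-04) and Hspa1b with 62.6 ± 7.86 CPM with melatonin and 134 ± 14.2 CPM with vehicle (log2 fold change -1.09 ± 0.11, edgeR adjusted p = 4.3e-05). They are near-identical copies, so the split of reads between them is uncertain. Hspd1, the mitochondrial HSP60, rose with 181 ± 11.7 CPM with melatonin and 149 ± 2.98 CPM with vehicle (log2 fold change 0.28 ± 0.062, edgeR adjusted p = 0.0058), and Hsf1, the heat shock transcription factor, rose with 51.2 ± 2.14 CPM with melatonin and 40.1 ± 1.28 CPM with vehicle (log2 fold change 0.35 ± 0.062, edgeR adjusted p = 0.0015).

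Of 8 receptor genes of ER-phagy, the delivery of ER fragments to lysosomes, 3 rose (37.5%) and 0 fell, where 18.1% of all tested genes rose and 18.5% fell (edgeR; the same counts were given by an unadjusted p under 0.05, by DESeq2 and by limma-voom). The count higher was 2 at an adjusted p under 0.01 and 4 with library totals. It was also 2 without melatonin replicate 1 or 2 and without vehicle replicate 1, 2 or 3. Retreg2 averaged 65.2 ± 3.21 CPM with melatonin and 45.1 ± 1.93 CPM with vehicle (log2 fold change 0.53 ± 0.064, edgeR adjusted p = 1.5e-04), and Calcoco1 averaged 112 ± 5.38 CPM with melatonin and 79.98 ± 4.21 CPM with vehicle (log2 fold change 0.49 ± 0.063, edgeR adjusted p = 2.6e-04). Tex264 also rose and was named after its value was seen, with 119 ± 8.05 CPM with melatonin and 96.2 ± 12.8 CPM with vehicle (log2 fold change 0.30 ± 0.10, edgeR adjusted p = 0.034).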
